A study of Homo sapiens with 61 samples.

Results

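The 10 genes described here are transcription factors, growth proteins and 1 signalling inhibitor that are known from work on axon regeneration: SOX11, KLF4, KLF6, KLF7, KLF9, SMAD1, STAT3, GAP43, BASP1 and SOCS3. They were named for their known roles, with earlier results of these data known, and all 10 symbols were matched through the GENCODE annotation among the 58440 genes of the count tables. RNA-seq of human neurons was examined in 61 libraries of 14 groups. The neurons were made from WTC11, a human induced pluripotent stem cell line, by forced expression of NGN2, a transcription factor that turns stem cells into cortical-type (i3) neurons. All groups received either 5 nM vincristine, a drug that binds tubulin and blocks microtubule assembly, or the DMSO vehicle for 16 hours, starting on day 14 per the series' design text. The vehicle groups are called untreated, as in the labels. In experiment 1, WTC11 lines with a doxycycline-inducible NGN2 cassette were wild type (WT), DLK KO, LZK KO or DLK LZK double KO, with 4 libraries per line and treatment. DLK (gene MAP3K12) and LZK (gene MAP3K13) are related kinases at the head of the JNK stress pathway. In experiment 2, neurons that carried the CRISPR interference machinery were transduced with lentivirus encoding a scrambled Control gRNA, a gRNA against ATF2 or a gRNA against JUN, with 5 libraries per gRNA and treatment except 4 for the ATF2 gRNA with vincristine. ATF2 and JUN are DNA-binding partners downstream of JNK. The labels do not say whether a line is a single clone or how many gRNAs were used per target, nor whether libraries of a group came from separate cultures, so the p-values measure only the spread between these libraries, which may be technical.

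As background, injured peripheral neurons turn on a growth programme in which transcription factors act on genes of the growing axon tip. SMAD1 carries bone morphogenetic protein (BMP) signals to the nucleus, and STAT3 carries signals of gp130 cytokines such as IL-6 and CNTF through JAK kinases, with SOCS3 as the feedback inhibitor of that route. In the Krüppel-like family, KLF6 and KLF7 are known to favour axon growth and KLF4 and KLF9 to restrain it. SOX11 is a factor of immature and regenerating neurons, and GAP43 and BASP1 are membrane-bound proteins of the growth cone. DLK and LZK relay axon injury and microtubule damage to JUN.

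The libraries of experiment 1 held 8410729 to 14647819 counts, and those of experiment 2 held 38925807 to 88392414. Levels are given as CPM, that is counts scaled to a common library size with TMM factors, and levels of different genes are compared only per kilobase of exonic length (RPKM). Log2 fold changes are given ± SE with p-values of edgeR's quasi-likelihood test, adjusted by Benjamini-Hochberg over all genes tested in that comparison (18235 genes in experiment 1 and 20759 in experiment 2), and a gene is called at an adjusted p under 0.05. The targeted genes were lower where their labels said so. MAP3K12 lay at 23.7 to 29.7 CPM in untreated DLK KO and at 17.4 to 21.8 CPM in untreated double KO, against 89.7 to 94.3 CPM in untreated WT. MAP3K13 lay at 30.1 to 34.2 CPM in untreated LZK KO and 26.7 to 31.0 CPM in untreated double KO, against 96.8 to 101 CPM. ATF2 lay at 0.106 to 0.877 CPM with its gRNA against 111 to 158 CPM with the Control gRNA, and JUN at 2.24 to 3.47 CPM with its gRNA against 81.7 to 97.8 CPM. JUN itself was also lower with the ATF2 gRNA, at 18.2 to 22.5 CPM. Against 131 to 151 CPM in untreated WT, JUN lay at 48.2 to 60.5 CPM in untreated DLK KO and 36.5 to 41.9 CPM in untreated double KO. ATF2 lay at 64.5 to 77.8 CPM in untreated DLK KO against 121 to 151 CPM in untreated WT. It was not lower in the untreated double KO, at 141 to 156 CPM, or in untreated LZK KO, at 129 to 204 CPM. The summed level of 8 neuron markers lay between 6515 and 10977 CPM in experiment 1 and 6146 and 9357 CPM in experiment 2, while 5 microglia markers summed to at most 2.58 CPM and 6 astrocyte markers to at most 8.79 CPM. WT vincristine replicate 4 stood apart from its group for several members and also across genes. The chi-square per gene, which grows as the counts of 2 libraries part, was 34.9, 23.9 and 34.4 against replicates 1, 2 and 3. Among those replicates it was 3.27 to 6.01. JUN lay at 289 CPM in replicate 4, against 538 to 629 CPM in the rest of the group. That library is part of all fits of experiment 1 unless stated. In the LZK KO vincristine group the chi-square per gene of replicate 4 was 10.3, 25.6 and 17.8 against replicates 1, 2 and 3. Among those replicates it was 5.64 to 8.34. The LZK KO library was kept likewise. These are bulk samples, so fewer cells with a transcript and less transcript per cell cannot be told apart.

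The members differed in level by orders of magnitude. In untreated WT neurons the level per length was 483 ± 19.4 RPKM for GAP43 and 402 ± 2.96 RPKM for BASP1 (SD, n = 4 throughout), which made the growth cone proteins by far the most abundant members. KLF7 followed at 30.6 ± 0.803 RPKM, SOX11 at 11.8 ± 0.506 RPKM, STAT3 at 9.63 ± 0.743 RPKM, KLF6 at 7.72 ± 0.525 RPKM and SMAD1 at 7.10 ± 0.493 RPKM. KLF6 and SMAD1 overlapped between libraries, and the others in this order did not overlap with their neighbours. SOCS3 was low, at 0.587 ± 0.0722 RPKM. KLF4 at 0.0923 ± 0.0821 RPKM and KLF9 at 0.0356 ± 0.0265 RPKM overlapped and were at the edge of detection. With the Control gRNA the order was the same for the leading members, with GAP43 at 694 ± 12.7 RPKM, BASP1 at 297 ± 9.48 RPKM and KLF7 at 29.3 ± 1.21 RPKM (n = 5). STAT3 was then above SOX11, at 12.8 ± 0.469 RPKM against 7.69 ± 0.619 RPKM. SOX11, SMAD1 (6.91 ± 0.571 RPKM) and KLF6 (6.50 ± 0.334 RPKM) overlapped with their neighbours in that order. KLF4 had at most 12 counts in a library of experiment 1 and 20 in one of experiment 2 and passed the filter on low counts in neither, and KLF9 passed in experiment 2 only. So 8 members were tested in experiment 1 and 9 in experiment 2.

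Vincristine changed between 0 and 7 of the tested members, depending on the line. Of the 8 members tested, KLF7 and SMAD1 were called higher and STAT3 lower in WT neurons, where 30.2% of all genes tested were called. In DLK KO neurons KLF6, KLF7, SMAD1 and SOX11 were called higher and none lower, against 6.53% of all genes. In LZK KO neurons GAP43, KLF6 and SMAD1 were higher and none lower, against 3.88% of all genes. In the double KO edgeR called 0 of the 8, against 0.0658% of all genes. There 1 member, GAP43 at 0.16, had an unadjusted p under 0.05, DESeq2 and limma with voom called 0 members, and edgeR called 1 when fitted on the double KO libraries alone. With the Control gRNA 7 of 9 members were called, namely KLF6, KLF7, KLF9 and SMAD1 higher and BASP1, GAP43 and STAT3 lower, against 35.3% of all genes. The ATF2 gRNA neurons had BASP1 and GAP43 lower and no member was higher, against 6.1% of all genes. With the JUN gRNA KLF7 and SMAD1 were higher and GAP43, SOCS3 and STAT3 lower, against 15.9% of all genes. In WT the members' count of 3 of 8 lay near the share for all genes. The median log2 fold change of the tested members was 0.00 in WT and 0.38 with the Control gRNA, and that of all genes 0.00 and 0.03. The median of 0.38 is the value of SOCS3, which was not called. SOCS3 averaged 0.960 CPM untreated and 1.26 CPM treated with the Control gRNA, with overlap.

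**Figure D1:**
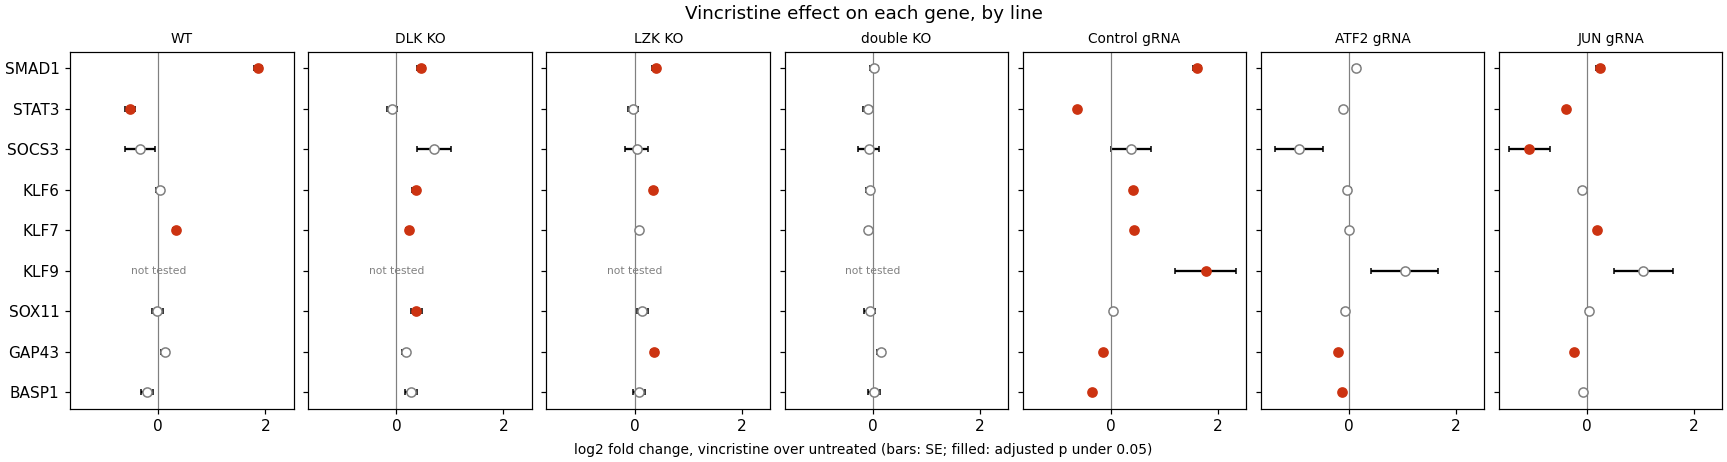
Log2 fold change with vincristine (x axis) of each member tested in each of 7 neuron lines, from edgeR's fit; bars are ± 1 SE and filled points are called at an adjusted p under 0.05. SMAD1 in WT (1.86) and with the Control gRNA (1.61) lies far from the other well-counted members, and the double KO has no filled point.

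The change with vincristine itself differed between lines for part of the members. Against the change in WT, the change in DLK KO was called different for BASP1, KLF6 and STAT3 (more positive) and SMAD1 (less positive), 4 of 8 members against 19.4% of all genes. The LZK KO differed from WT for KLF6 and STAT3 (more positive) and KLF7 and SMAD1 (less positive), 4 of 8 against 12.4%. The double KO differed from WT for STAT3 (more positive) and for KLF7 and SMAD1 (less positive), 3 of 8 against 19.4%, and from the DLK KO for KLF6, KLF7 and SMAD1 (all less positive), 3 of 8 against 1.14%. In experiment 2 the ATF2 gRNA and the JUN gRNA were called different from the Control gRNA for the same 5 of 9 members, namely BASP1 and STAT3 (more positive) and KLF6, KLF7 and SMAD1 (less positive), against 20.6% and 15.8% of all genes. The ATF2 gRNA differed from the JUN gRNA for STAT3 (more positive) and KLF7 (less positive), 2 of 9 against 2.83%. The comparisons within an experiment share the WT or Control gRNA libraries, so their calls are not independent of each other.

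**Figure D2:**
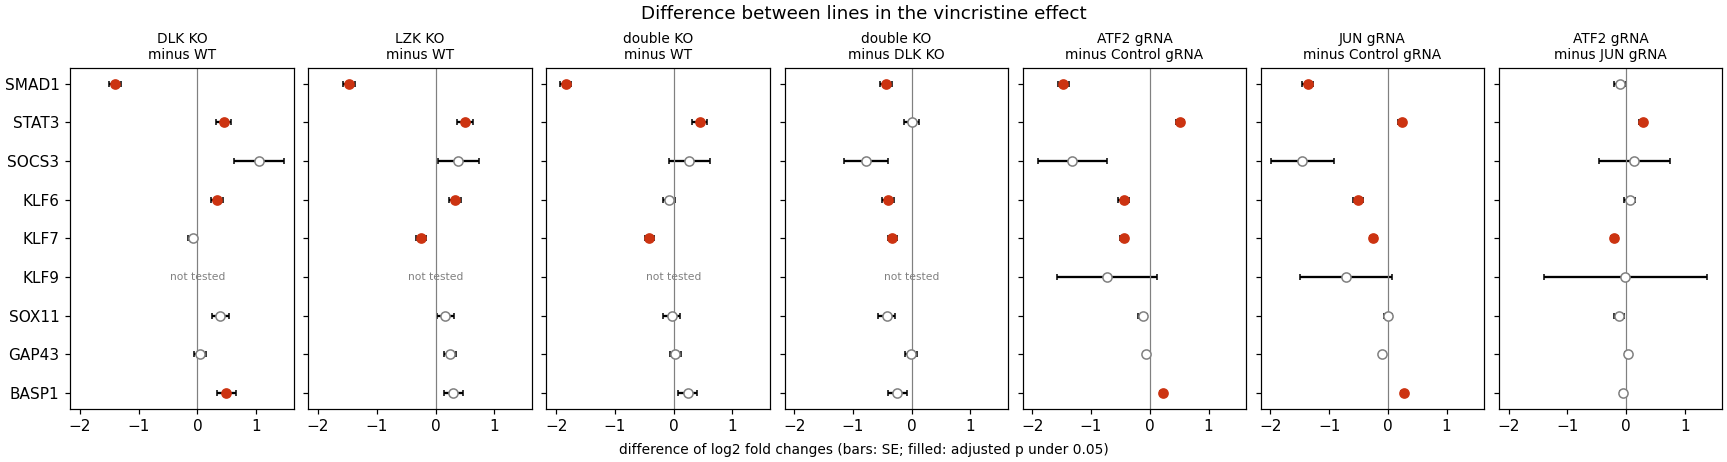
Difference between lines in the log2 fold change with vincristine (x axis) for each member tested, from edgeR's fit; bars are ± 1 SE and filled points are called at an adjusted p under 0.05. SMAD1 lies at -1.40, -1.47 and -1.84 for the 3 knockout lines against WT and at -1.47 and -1.37 for the ATF2 and JUN gRNAs against the Control gRNA.

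The untreated lines were also compared. In untreated DLK KO neurons 7 of 8 members were called against untreated WT, SOX11 higher and BASP1, GAP43, KLF6, KLF7, SMAD1 and SOCS3 lower, where 34.5% of all genes were called. In untreated LZK KO neurons SMAD1, SOCS3 and SOX11 were higher and GAP43 and STAT3 lower, 5 of 8 against 33.9%. In untreated double KO neurons SMAD1, SOCS3 and SOX11 were higher and GAP43, KLF6 and STAT3 lower, 6 of 8 against 45.7%. With the ATF2 gRNA 7 of 9 members were lower than with the Control gRNA and none higher, against 39.9% of all genes called, and KLF9 and SMAD1 were the ones not called. With the JUN gRNA GAP43 and SOX11 were lower, 2 of 9 against 11.2%.

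**Figure D3:**
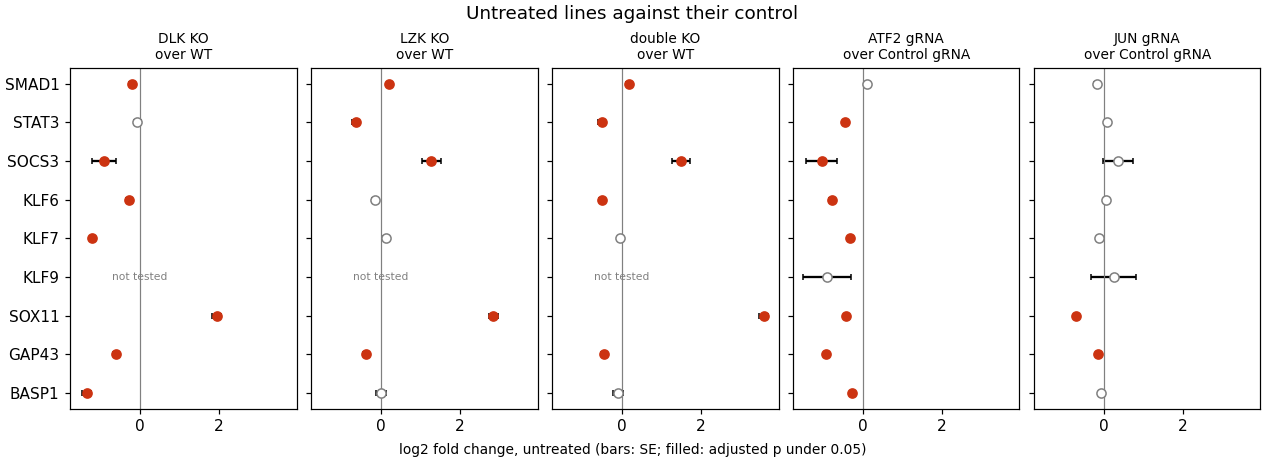
Log2 fold change of untreated knockout or gRNA neurons against untreated WT or Control gRNA neurons (x axis) for each member tested, from edgeR's fit; bars are ± 1 SE and filled points are called at an adjusted p under 0.05. SOX11 reaches 1.94, 2.84 and 3.58 in the 3 knockout lines and lies below 0 with both gRNAs.

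SMAD1 (ENSG00000170365.9, chr4:145481194-145558079, plus strand, GRCh38) carries BMP signals and is linked to the growth state of sensory neurons. It showed the largest rise with vincristine among the well-counted members, 3.64-fold in WT and 3.06-fold with the Control gRNA, and the change was smaller in each of the 5 modified lines. In untreated WT the 4 libraries held 46.9, 40.9, 40.5 and 43.7 CPM, and with vincristine 148, 141, 160.0 and 178 CPM. With the Control gRNA the 5 untreated libraries held 40.1, 37.4, 41.6, 46.5 and 43.6 CPM and the treated ones 135, 135, 129, 131 and 110.3 CPM. In both control lines each treated library lay far above every untreated one. The log2 fold change was 1.86 ± 0.07 (adjusted p = 1.3e-21) in WT and 1.61 ± 0.07 (adjusted p = 1.04e-23) with the Control gRNA.

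**Figure D4:**
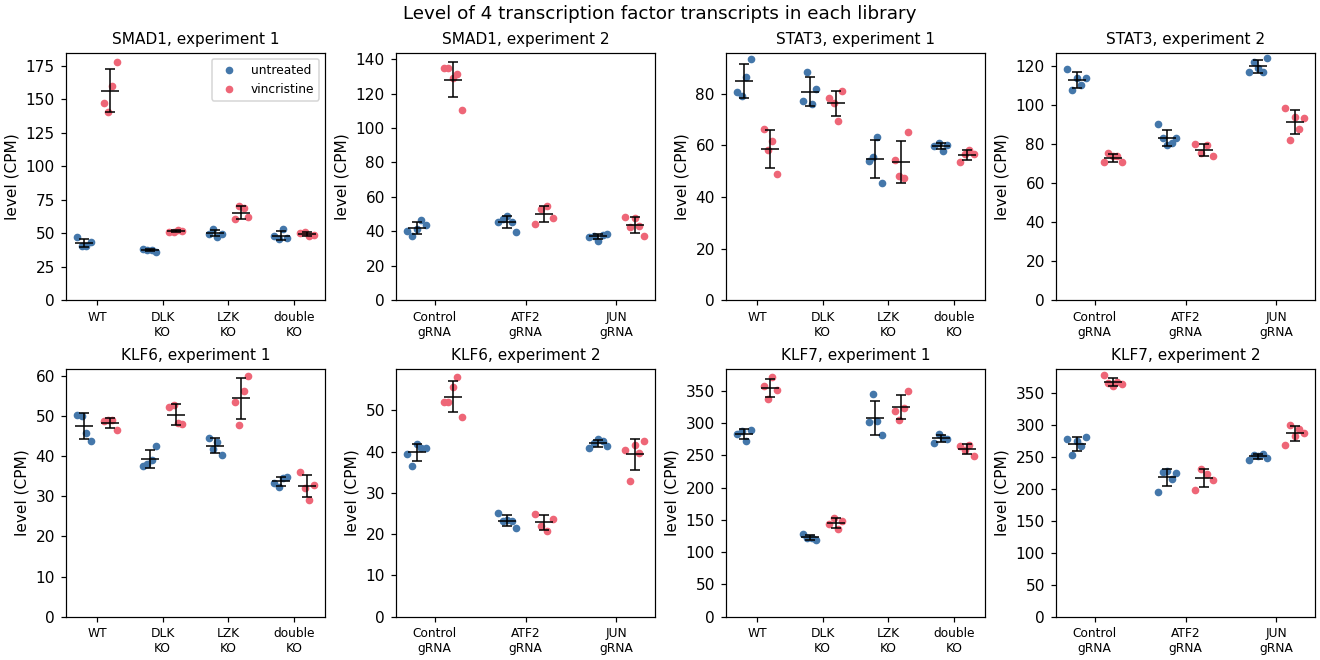
Level in CPM (y axis) of SMAD1, STAT3, KLF6 and KLF7 in every library of the 14 groups; each point is 1 library and lines with bars are the group mean ± SD. SMAD1 reaches 141 to 178 CPM in WT vincristine and 110.3 to 135 CPM in Control gRNA vincristine, and the highest of all other libraries is at 70.4 CPM.

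Where 1 kinase was missing, the treated libraries still lay above the untreated ones, but only slightly. In DLK KO SMAD1 went from 38.3, 37.4, 37.5 and 36.4 CPM to 51.2, 50.9, 52.3 and 51.7 CPM, and in LZK KO from 49.8, 52.9, 47.5 and 49.3 CPM to 60.8, 70.4, 68.9 and 61.9 CPM. These are fold changes of 0.46 ± 0.07 (adjusted p = 3.09e-05) and 0.39 ± 0.07 (adjusted p = 0.000303) on the log2 scale. In the double KO the groups overlapped, with 48.0, 45.8, 53.1 and 46.7 CPM untreated and 50.0, 50.8, 47.8 and 48.7 CPM treated, and the fold change was 0.03 ± 0.07 (adjusted p = 0.945) with a 95% interval of -0.11 to 0.16. The difference from the WT change was -1.40 ± 0.10 (adjusted p = 7.03e-13) for DLK KO, -1.47 ± 0.10 (adjusted p = 4.23e-13) for LZK KO and -1.84 ± 0.10 (adjusted p = 3.53e-16) for the double KO. The double KO also differed from the DLK KO, by -0.44 ± 0.10 (adjusted p = 0.016). That last call was lost without double KO untreated replicate 3, at -0.39 (adjusted p = 0.0506), and without double KO vincristine replicate 3, at -0.40 (adjusted p = 0.054). With no filter it was -0.44 (adjusted p = 0.0509).

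With the ATF2 gRNA the libraries overlapped, with 45.7, 47.1, 48.7, 45.3 and 39.7 CPM untreated and 44.4, 53.1, 54.6 and 47.8 CPM treated. The JUN gRNA libraries overlapped as well, with 36.7, 37.5, 34.6, 38.0 and 38.3 CPM untreated and 48.6, 42.3, 47.8, 43.3 and 37.2 CPM treated, since treated replicate 5 lay within the untreated range. The fold change was 0.14 ± 0.07 (adjusted p = 0.284) with the ATF2 gRNA and 0.25 ± 0.07 (adjusted p = 0.00742) with the JUN gRNA, and the latter call was lost without JUN gRNA vincristine replicate 3, at 0.20 (adjusted p = 0.0518). Against the Control gRNA the change was smaller by 1.47 ± 0.10 (adjusted p = 4.98e-16) on the log2 scale with the ATF2 gRNA and by 1.37 ± 0.09 (adjusted p = 3.02e-15) with the JUN gRNA. The 2 gRNAs were not told apart, with a difference of -0.10 ± 0.10 (adjusted p = 0.745) and a 95% interval of -0.30 to 0.09. Before treatment SMAD1 differed little between lines. It was -0.20 ± 0.07 (adjusted p = 0.0258) in DLK KO, 0.22 ± 0.07 (adjusted p = 0.0161) in LZK KO and 0.17 ± 0.07 (adjusted p = 0.0421) in the double KO, and none of these calls held under every alternative. The call for untreated DLK KO against untreated WT did not survive leaving out, in turn, DLK KO untreated replicate 3 and 4, WT untreated replicate 1 and 4, at log2 values of -0.20 to -0.16 (adjusted p up to 0.114), and was also lost with no filter (-0.19, adjusted p = 0.187). The call for untreated LZK KO against untreated WT did not survive leaving out, in turn, LZK KO untreated replicate 2, WT untreated replicate 2 and 3, at log2 values of 0.19 (adjusted p up to 0.0639), and was also lost with no filter (0.21, adjusted p = 0.127). The call for untreated double KO against untreated WT did not survive leaving out, in turn, double KO untreated replicate 1, 2 and 3, WT untreated replicate 2, 3 and 4, at log2 values of 0.12 to 0.18 (adjusted p up to 0.185), and was also lost with RLE factors (0.17, adjusted p = 0.0514), DESeq2 (0.17, adjusted p = 0.0729) and no filter (0.18, adjusted p = 0.151). An antisense gene, SMAD1-AS1, shares 6.21% of SMAD1's exonic bases but had at most 4 counts in any library. Of the 6 markers of progenitor and dividing cells, NES averaged 584 CPM in experiment 1 and 1348 CPM in experiment 2. SOX2, PAX6, HES5, MKI67 and TOP2A averaged at most 18.2 CPM each, so the sum of the 6 mostly follows NES. That sum was also higher with treatment in 5 of the 7 lines, without overlap. The sum was 734 to 775 CPM in untreated and 923 to 1952 CPM in treated WT, and 1310.5 to 1401 and 2431 to 2527 CPM with the Control gRNA. It was 209.6 to 274 and 491 to 603 CPM in DLK KO, 516 to 675 and 979 to 1173 CPM in LZK KO, and 125 to 133 and 122 to 128 CPM in the double KO. In ATF2 gRNA neurons it was 739 to 816 and 697 to 805 CPM and with the JUN gRNA 958 to 1080.1 and 1657 to 1763 CPM. The part of these markers in the SMAD1 result was not tested.

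Sequence upstream of the members was read from RefSeq's GRCh38.p14 promoter windows, which held an entry for 9 of the 10 members. The motifs were searched on both strands of the 250 bases before the start: TGANTCA, the site of AP-1 (JUN and its partners), TGACGTCA, the cyclic AMP response element that ATF2 binds, TGACNTCA, the same element with 1 open base, which was added after the sequences were seen and includes it, GGGCGG, the GC box of KLF and SP factors, and TTCNNNGAA, the STAT site. Among 35116 windows of all genes TGANTCA was found in 6.57%, TGACGTCA in 1.65%, TGACNTCA in 6.87%, GGGCGG in 42.6% and TTCNNNGAA in 6.57%. In the window nearest the annotated start, TGANTCA was found in SMAD1 alone of the 9 members, TGACNTCA in KLF6 alone, GGGCGG in KLF4, KLF6, STAT3 and BASP1, TTCNNNGAA in GAP43, and TGACGTCA in none. SMAD1, KLF7 and SOCS3 had further windows, and TGANTCA was found in none of those. Of these, a KLF7 window 411 bases from the GENCODE start held GGGCGG at 4 places. SMAD1 windows at 659, 1140 and 1611 bases also held GGGCGG, and a KLF7 window at 33130 bases held TTCNNNGAA. The RefSeq start of the BASP1 window lay 151225 bases from the GENCODE start, inside the gene, and that of KLF4 713 bases. For the other members this distance was 21 to 410 bases. The stretches below belong to 4 of the 5 members whose vincristine response differed between lines (BASP1 is the other), with matches in capitals, 5′ to 3′ on the gene's strand.
SMAD1, AP-1 match, chr4:145481250-145481279, plus strand: aacgcatctgtTGACTCAgggtttgtataa
SMAD1, upstream, chr4:145481056-145481193, plus strand: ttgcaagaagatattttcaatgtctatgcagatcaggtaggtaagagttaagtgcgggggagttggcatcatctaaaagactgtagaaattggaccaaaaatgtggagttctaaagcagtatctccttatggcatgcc
KLF6, chr10:3785282-3785459, minus strand: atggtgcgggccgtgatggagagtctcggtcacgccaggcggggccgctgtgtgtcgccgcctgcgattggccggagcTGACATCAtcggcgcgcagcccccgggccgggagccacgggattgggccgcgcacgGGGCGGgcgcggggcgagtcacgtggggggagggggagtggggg
KLF7, chr2:207167268-207167496, minus strand: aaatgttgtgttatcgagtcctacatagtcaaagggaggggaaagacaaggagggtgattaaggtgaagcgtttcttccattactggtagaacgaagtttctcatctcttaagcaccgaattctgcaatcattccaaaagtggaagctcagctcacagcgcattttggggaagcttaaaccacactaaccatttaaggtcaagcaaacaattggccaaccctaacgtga
STAT3, chr17:42388569-42388692, minus strand: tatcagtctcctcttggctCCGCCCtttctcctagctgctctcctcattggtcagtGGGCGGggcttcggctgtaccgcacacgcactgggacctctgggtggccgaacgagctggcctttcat
The SMAD1 match lies downstream of the GENCODE start. It begins at position -45 from the RefSeq start, and the KLF6 match to TGACNTCA at position -172. The KLF7 stretch held none of the motifs, and the STAT3 stretch held GGGCGG on each strand. These are matches of letters, and whether any factor binds there was not measured.

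STAT3 (ENSG00000168610.14, chr17:42313324-42388568, minus strand) moved opposite to SMAD1 and fell with vincristine in both control lines and in the JUN gRNA neurons. Untreated WT held 80.6, 78.9, 86.5 and 93.4 CPM and treated WT 66.2, 58.3, 61.7 and 48.7 CPM. With the Control gRNA it went from 118, 107, 113, 109.8 and 114 CPM to 70.6, 75.3, 74.0, 73.8 and 70.8 CPM. All treated libraries lay below all untreated ones in both lines, and WT vincristine replicate 4 was the lowest of its group. The log2 fold change was -0.53 ± 0.09 (adjusted p = 1.84e-05) in WT and -0.63 ± 0.04 (adjusted p = 3.5e-16) with the Control gRNA. With the JUN gRNA STAT3 went from 117, 122, 119, 117 and 124 CPM to 98.2, 82.1, 93.9, 87.8 and 93.0 CPM, again without overlap, which is -0.39 ± 0.04 (adjusted p = 1.85e-09). The fold change was -0.08 ± 0.09 (adjusted p = 0.61) in DLK KO, -0.03 ± 0.09 (adjusted p = 0.928) in LZK KO, -0.08 ± 0.09 (adjusted p = 0.867) in the double KO and -0.11 ± 0.05 (adjusted p = 0.182) with the ATF2 gRNA.

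The change was less negative than in the control line, by a called difference, in each modified line. Against WT it was 0.45 ± 0.13 (adjusted p = 0.0122) for DLK KO, 0.50 ± 0.13 (adjusted p = 0.00842) for LZK KO and 0.44 ± 0.13 (adjusted p = 0.0124) for the double KO. Against the Control gRNA it was 0.52 ± 0.06 (adjusted p = 1.89e-08) for the ATF2 gRNA and 0.23 ± 0.06 (adjusted p = 0.00598) for the JUN gRNA, and the ATF2 gRNA differed from the JUN gRNA by 0.28 ± 0.06 (adjusted p = 0.00521). The LZK KO call was lost when only the compared groups were fitted, at 0.51 (adjusted p = 0.0702), and the JUN gRNA call with no filter on low counts, at 0.20 (adjusted p = 0.0579). In several of these lines STAT3 was already low before treatment. Untreated LZK KO held 54.1, 55.3, 63.4 and 45.4 CPM and the untreated double KO 59.6, 60.9, 58.0 and 60.2 CPM, all below untreated WT, with fold changes of -0.63 ± 0.09 (adjusted p = 7.66e-07) and -0.51 ± 0.09 (adjusted p = 1.45e-05). The untreated ATF2 gRNA libraries held 89.9, 83.0, 79.6, 80.4 and 82.8 CPM, all below those of the Control gRNA (-0.44 ± 0.04, adjusted p = 1.53e-11). Untreated DLK KO held 77.0, 88.4, 76.1 and 81.7 CPM, which overlapped with WT, and the untreated JUN gRNA value was 0.09 ± 0.04 (adjusted p = 0.235).

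SOCS3 (ENSG00000184557.4, chr17:78356778-78360077, minus strand), the inhibitor of STAT3 signalling, had few counts, 3 to 65 per library in experiment 1 and 2 to 109 in experiment 2. Untreated WT held 1.62, 1.86, 1.55 and 1.39 CPM and untreated LZK KO 3.87, 4.45, 3.79 and 3.53 CPM, and the untreated double KO 4.68, 4.41, 4.53 and 4.56 CPM. Every library of the LZK KO and the double KO lay above every WT library. The fold change was 1.28 ± 0.24 (adjusted p = 4.85e-05) in LZK KO and 1.49 ± 0.23 (adjusted p = 9.74e-07) in the double KO. Untreated DLK KO went the other way, with 0.670, 0.299, 1.33 and 1.08 CPM and -0.91 ± 0.31 (adjusted p = 0.0192), a call that needed single libraries, since leaving out untreated DLK KO replicate 1 or 2 or untreated WT replicate 2 gave -0.81 (adjusted p = 0.0624), -0.64 (adjusted p = 0.106) and -0.83 (adjusted p = 0.0545). In untreated ATF2 gRNA neurons SOCS3 was lower before treatment (-1.03 ± 0.39, adjusted p = 0.0313), with overlap between the libraries, and the call did not hold under every alternative. The call for untreated ATF2 gRNA against untreated Control gRNA did not survive leaving out, in turn, ATF2 gRNA untreated replicate 2, 3, 4 and 5, Control gRNA untreated replicate 4, at log2 values of -1.01 to -0.87 (adjusted p up to 0.0965), and was also lost with no filter (-1.02, adjusted p = 0.0826). With vincristine the JUN gRNA libraries went from 1.35, 1.10, 1.23, 1.35 and 1.13 CPM to 0.600, 0.292, 0.854, 0.592 and 0.572 CPM, without overlap (-1.07 ± 0.38, adjusted p = 0.0475). The call for JUN gRNA was lost in 9 of 10 fits that left out 1 library, at log2 values of -1.11 to -0.92 (adjusted p up to 0.123), and was kept without JUN gRNA vincristine replicate 3, and was also lost with no filter (-1.09, adjusted p = 0.108). In WT vincristine replicate 4 SOCS3 lay at 0.323 CPM, against 1.44 to 1.62 CPM in the others, and the vincristine effect in WT was -0.34 ± 0.28 (adjusted p = 0.39).

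The other genes of the gp130, JAK and STAT route were followed as a list of 28. With vincristine 7 of 23 tested genes were called in WT, 4 higher and 3 lower, and 11 of 25 with the Control gRNA, 6 higher and 5 lower, beside 30.2% and 35.3% of all genes. In the DLK KO CNTFR, the receptor subunit for CNTF, was the 1 gene called, and with the JUN gRNA 4 were, 2 higher and 2 lower, beside 6.53% and 15.9% of all genes. CNTFR was singled out after its values were seen. SOCS2, another member of the SOCS family, fell in both control lines, by 0.46 and 0.43 on the log2 scale. IL6ST, which encodes gp130, rose with the Control gRNA by 0.59 ± 0.09 (adjusted p = 3.32e-06) and JAK2 by 0.47 ± 0.09 (adjusted p = 5.51e-05). In WT IL6ST was -0.04 and JAK2 -0.07, neither called. The list's median was 0.00 in WT and 0.08 with the Control gRNA, beside 0.00 and 0.03 for all genes.

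Of 24 other genes of the BMP and SMAD route, 5 were higher and 4 lower with vincristine among 21 tested in WT, and 4 higher and 2 lower among 23 with the Control gRNA, beside 30.2% and 35.3% of all genes called in either direction. ID4, a target gene of BMP signals, rose in WT by 0.76 ± 0.06 (adjusted p = 2.73e-12) and with the Control gRNA by 0.60 ± 0.05 (adjusted p = 4.35e-15). It rose by 0.98 in DLK KO and 0.72 in LZK KO, while it was 0.10 and not called in the double KO. ACVR1, a BMP type I receptor, rose by 0.54 in WT and by 0.75 ± 0.08 (adjusted p = 3.3e-11) with the Control gRNA and was not called in the knockout and gRNA lines. ID2, of the same family as ID4 and also a target gene of BMP signals, went the other way. It fell by 0.60 in WT and by 0.85 with the Control gRNA. BMP2, a ligand, was -0.79 ± 0.20 (adjusted p = 0.00216) in WT and -0.05, not called, with the Control gRNA. The list's median lay at -0.02 in WT and 0.06 with the Control gRNA, against 0.00 and 0.03 for all genes. The genes whose group means were most like those of SMAD1 over the 14 groups were GEN1 (Pearson r = 0.967) and ZNF143 (r = 0.963), and those most like STAT3 were UNC13A (r = 0.953) and AFG3L2 (r = 0.940). These were the nearest of 12338 genes, centred within each experiment, and are a description.

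KLF7 (ENSG00000118263.14, chr2:207074137-207167267, minus strand), a growth-promoting factor, rose modestly with vincristine. WT went from 283, 288, 273 and 289 CPM to 358, 338, 371 and 352 CPM and the Control gRNA from 278, 253, 275, 267 and 282 CPM to 378, 366, 361, 368 and 364 CPM. In both lines every treated library was above every untreated one. The fold change was 0.32 ± 0.06 (adjusted p = 1.6e-05) in WT and 0.44 ± 0.04 (adjusted p = 5.53e-13) with the Control gRNA. In DLK KO it went from 128, 123, 123 and 119 CPM to 144, 153, 136 and 149 CPM (0.24 ± 0.06, adjusted p = 0.00709), and with the JUN gRNA from 246, 254, 253, 255 and 249 CPM to 269.5, 300.2, 283, 295 and 288 CPM (0.19 ± 0.04, adjusted p = 0.000222), both without overlap. In DLK KO the change no longer passed without the untreated library of replicate 4, at 0.21 (adjusted p = 0.0508), or without the treated library of replicate 2, at 0.20 (adjusted p = 0.0735), or with no filter, at 0.23 (adjusted p = 0.0831). The change in LZK KO was 0.08 ± 0.06 (adjusted p = 0.549), in the double KO -0.09 ± 0.06 (adjusted p = 0.802) and with the ATF2 gRNA -0.01 ± 0.04 (adjusted p = 0.963). In the double KO every treated library lay below every untreated one although the change was not called.

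Against WT the KLF7 change was smaller by 0.41 ± 0.08 (adjusted p = 0.000157) on the log2 scale in the double KO, and against the Control gRNA by 0.45 ± 0.06 (adjusted p = 3.75e-08) with the ATF2 gRNA and 0.25 ± 0.06 (adjusted p = 0.000926) with the JUN gRNA. The differences for LZK KO against WT (-0.25 ± 0.08, adjusted p = 0.0307), the double KO against DLK KO (-0.33 ± 0.08, adjusted p = 0.0257) and the ATF2 against the JUN gRNA (-0.20 ± 0.06, adjusted p = 0.0425) did not hold under every alternative. The call for LZK KO against WT did not survive leaving out, in turn, LZK KO untreated replicate 2, LZK KO vincristine replicate 1 and 2, WT untreated replicate 3, WT vincristine replicate 3, at log2 values of -0.24 to -0.19 (adjusted p up to 0.0948), and was also lost with no filter (-0.24, adjusted p = 0.285) and the compared groups alone (-0.25, adjusted p = 0.188). The call for double KO against DLK KO was lost in 11 of 16 fits that left out 1 library, at log2 values of -0.34 to -0.28 (adjusted p up to 0.142), and was kept without DLK KO vincristine replicate 3, double KO untreated replicate 1, 3 and 4, double KO vincristine replicate 1, and was also lost with no filter (-0.33, adjusted p = 0.111). The call for ATF2 gRNA against JUN gRNA was lost in 15 of 19 fits that left out 1 library, at log2 values of -0.20 to -0.14 (adjusted p up to 0.215), and was kept without ATF2 gRNA untreated replicate 1, ATF2 gRNA vincristine replicate 3, JUN gRNA untreated replicate 4, JUN gRNA vincristine replicate 1, and was also lost with RLE factors (-0.18, adjusted p = 0.058), no filter (-0.18, adjusted p = 0.119) and the compared groups alone (-0.18, adjusted p = 0.18). The largest KLF7 difference was between untreated lines. DLK KO libraries lay far below the WT ones, and treated DLK KO libraries also lay below every untreated library of the other knockout lines. The untreated fold change was -1.20 ± 0.06 (adjusted p = 3.94e-19) in DLK KO and -0.31 ± 0.04 (adjusted p = 5.02e-09) with the ATF2 gRNA, where the untreated libraries held 196, 227, 228, 216 and 225 CPM. In the 5 Mb on each side of KLF7, 34 of 50 other tested genes were also called lower in untreated DLK KO and 1 higher, with a median log2 fold change of -0.81. The same genes had a median of 0.09 in LZK KO and 0.10 in the double KO. Whether KLF7 in DLK KO differs from its neighbours was not tested.

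KLF6 (ENSG00000067082.14, chr10:3775996-3785281, minus strand) rose in DLK KO, LZK KO and Control gRNA neurons. DLK KO went from 37.6, 37.9, 39.0 and 42.5 CPM to 52.2, 52.7, 48.1 and 48.0 CPM, LZK KO from 44.5, 41.7, 43.6 and 40.3 CPM to 53.4, 47.8, 56.1 and 60.0 CPM, and the Control gRNA from 39.5, 36.5, 41.8, 40.8 and 40.8 CPM to 52.1, 52.0, 55.8, 58.1 and 48.5 CPM. Treated libraries lay above untreated ones without overlap in all of them. The fold changes were 0.36 ± 0.07 (adjusted p = 0.00134), 0.35 ± 0.07 (adjusted p = 0.00186) and 0.42 ± 0.06 (adjusted p = 3.3e-07). The LZK KO call was lost when only the compared groups were fitted, at 0.36 (adjusted p = 0.0782). The WT libraries held 50.1, 50.0, 45.8 and 43.6 CPM untreated and 48.6, 48.8, 48.9 and 46.5 CPM treated, overlapped and gave 0.03 ± 0.07 (adjusted p = 0.829). Replicate 4 stood apart, as the lowest of the treated WT libraries. The double KO held 33.3, 32.2, 34.5 and 34.7 CPM and 36.1, 32.1, 29.1 and 32.8 CPM (-0.05 ± 0.07, adjusted p = 0.901). The fold change was -0.03 ± 0.07 (adjusted p = 0.897) with the ATF2 gRNA and -0.09 ± 0.06 (adjusted p = 0.389) with the JUN gRNA.

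The WT and Control gRNA changes of KLF6 come from separate experiments, and their difference was not tested. Within experiment 2 the change was smaller than with the Control gRNA by 0.44 ± 0.09 (adjusted p = 0.00028) on the log2 scale with the ATF2 gRNA and by 0.51 ± 0.09 (adjusted p = 2.16e-05) with the JUN gRNA. Within experiment 1 it was more positive than in WT by 0.33 ± 0.10 (adjusted p = 0.0171) in DLK KO and 0.33 ± 0.10 (adjusted p = 0.0275) in LZK KO, and the double KO lay below DLK KO by 0.41 ± 0.10 (adjusted p = 0.0322). The call for LZK KO against WT did not survive leaving out, in turn, LZK KO untreated replicate 4, LZK KO vincristine replicate 3 and 4, WT untreated replicate 1 and 2, at log2 values of 0.28 to 0.31 (adjusted p up to 0.0698), and was also lost with no filter (0.34, adjusted p = 0.155) and the compared groups alone (0.33, adjusted p = 0.111). The call for double KO against DLK KO was lost in 13 of 16 fits that left out 1 library, at log2 values of -0.42 to -0.35 (adjusted p up to 0.131), and was kept without DLK KO untreated replicate 4, DLK KO vincristine replicate 3, double KO vincristine replicate 1, and was also lost with no filter (-0.41, adjusted p = 0.112). The DLK KO difference was kept in all 16 fits that left out a library and lost with no filter, at 0.34 (adjusted p = 0.115). KLF6 was lower before treatment with the ATF2 gRNA, at 25.2, 23.1, 23.4, 23.2 and 21.5 CPM, below every Control gRNA library (-0.78 ± 0.06, adjusted p = 2.51e-14). It was also lower in the untreated double KO (-0.49 ± 0.07, adjusted p = 4.53e-07) and DLK KO (-0.27 ± 0.07, adjusted p = 0.00274), both without overlap with WT.

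KLF9 (ENSG00000119138.4, chr9:70384597-70414624, minus strand), one of the restraining factors, was called higher with vincristine in the Control gRNA neurons on low counts. The untreated libraries had 11, 36, 10, 11 and 5 counts (0.228, 0.952, 0.148, 0.238 and 0.0906 CPM) and the treated ones 83, 86, 64, 88 and 28 (0.943, 1.35, 1.11, 1.42 and 0.695 CPM). Untreated replicate 2 overlapped with the treated libraries, and the other 4 untreated libraries lay below all of them. The fold change was 1.77 ± 0.57 (adjusted p = 0.012). It was 1.04 ± 0.63 (adjusted p = 0.402) with the ATF2 gRNA and 1.06 ± 0.55 (adjusted p = 0.228) with the JUN gRNA, where the libraries went from 0.204, 0.284, 0.536, 0.670 and 0.218 CPM to 0.760, 0.808, 0.842, 0.819 and 0.792 CPM without overlap. KLF9 in experiment 1 had 0 to 7 counts per library. KLF4 (ENSG00000136826.14, chr9:107484852-107490482, minus strand) never passed the filter, so changes of KLF4 were not detectable at this depth. Of 12 other KLF genes, 4 of 8 tested were higher with vincristine in WT and none lower, and 4 of 10 higher and 1 lower with the Control gRNA, beside 30.2% and 35.3% of all genes called in either direction. KLF11 rose by 0.98 ± 0.11 (adjusted p = 5e-09) in WT and 1.36 ± 0.07 (adjusted p = 1.01e-21) with the Control gRNA, and KLF10, an early response factor, by 0.57 and 1.03 ± 0.09 (adjusted p = 4.29e-12). KLF8 rose by 0.69 ± 0.16 (adjusted p = 0.00123) in WT and was not called with the Control gRNA. The list's median was 0.20 in WT and 0.41 with the Control gRNA, against 0.00 and 0.03 for all genes. The genes most like KLF6 over the 14 groups were MTSS1 (r = 0.965) and STX12 (r = 0.958), and those most like KLF7 were DNAJB2 (r = 0.973) and ZNF536 (r = 0.968). DNAJB2 lies on chromosome 2 as KLF7 does.

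SOX11 (ENSG00000176887.6, chr2:5692667-5701385, plus strand) had the largest differences between untreated lines among the members and changed little with vincristine. Untreated WT held 106, 106, 103 and 96.5 CPM, untreated DLK KO 359, 379, 397 and 442 CPM, untreated LZK KO 755, 625, 803 and 753 CPM and the untreated double KO 1219.8, 1258, 1222 and 1221 CPM. No libraries overlapped between any of these 4 groups. Against WT the mean was 3.83-fold in DLK KO, 7.14-fold in LZK KO and 12.0-fold in the double KO, and the fitted log2 fold changes were 1.94 ± 0.11 (adjusted p = 9.36e-16), 2.84 ± 0.11 (adjusted p = 1.41e-19) and 3.58 ± 0.11 (adjusted p = 2.63e-22). The knockdown lines went the other way. The Control gRNA libraries held 76.0, 62.2, 67.4, 63.8 and 65.6 CPM, those of the ATF2 gRNA 52.0, 52.2, 51.7, 49.9 and 45.3 CPM and those of the JUN gRNA 41.1, 41.4, 39.9, 42.3 and 43.0 CPM. Both gRNAs gave lower libraries than the Control gRNA without overlap, with -0.42 ± 0.05 (adjusted p = 8.97e-09) for ATF2 and -0.69 ± 0.05 (adjusted p = 7.39e-14) for JUN.

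**Figure D5:**
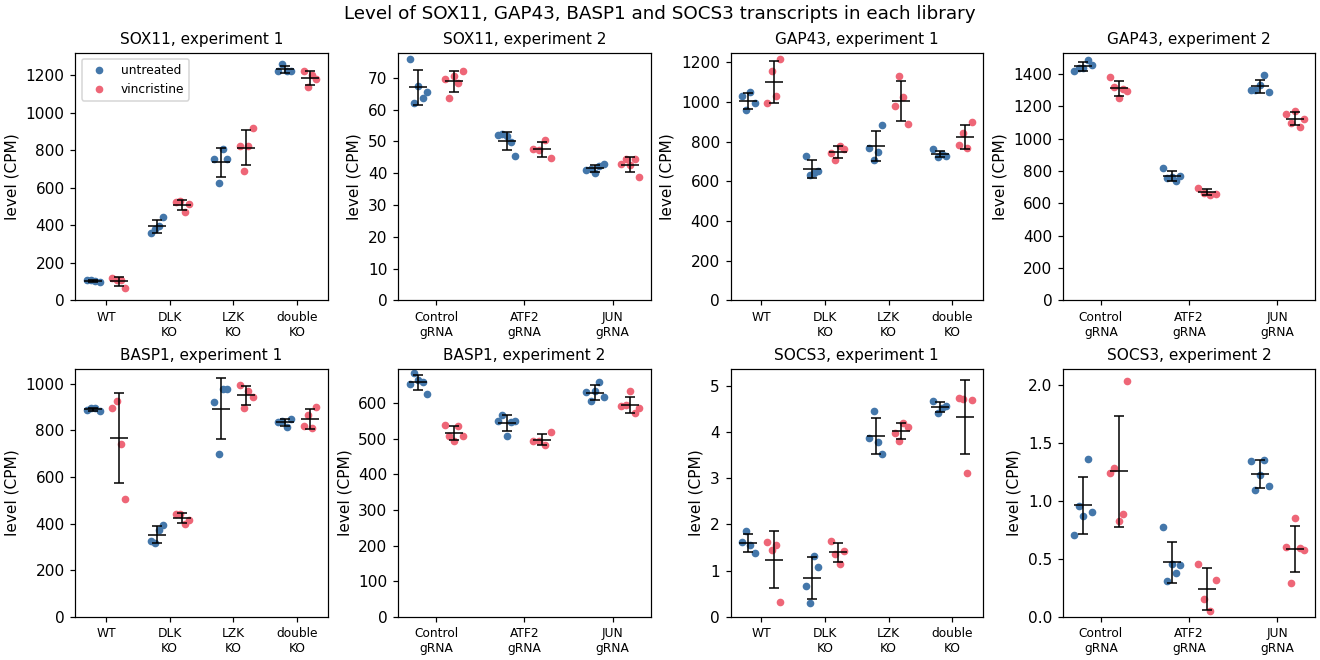
Level in CPM (y axis) of SOX11, GAP43, BASP1 and SOCS3 in every library of the 14 groups; each point is 1 library and lines with bars are the group mean ± SD. SOX11 climbs from 96.5 to 106 CPM in untreated WT to 1219.8 to 1258 CPM in the untreated double KO, and BASP1 is lowest in DLK KO.

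With vincristine SOX11 was -0.02 ± 0.11 (adjusted p = 0.913) in WT, where treated libraries held 118, 109, 110.5 and 67.7 CPM and replicate 4 was the low one. Without that library the value was 0.12 (adjusted p = 0.204). The change was 0.04 ± 0.05 (adjusted p = 0.643) with the Control gRNA and -0.05 ± 0.10 (adjusted p = 0.93) in the double KO. In DLK KO it rose from the level above to 524, 527, 471 and 514 CPM, all above the untreated libraries (0.37 ± 0.10, adjusted p = 0.0271). The call for DLK KO did not survive leaving out, in turn, DLK KO untreated replicate 1, 2 and 3, DLK KO vincristine replicate 1, 2 and 4, at log2 values of 0.32 to 0.36 (adjusted p up to 0.121). Of the marker lists, the pluripotency sum had the same order as SOX11 across the untreated lines of experiment 1. The 8 pluripotency markers summed to 33.7 to 35.2 CPM in WT, 36.8 to 40.4 CPM in DLK KO, 61.9 to 79.6 CPM in LZK KO and 94.4 to 102 CPM in the double KO, led by PODXL, DNMT3B and LIN28A. POU5F1 and NANOG, the defining ones, averaged at most 0.670 and 0.222 CPM in these groups. The sum of the 6 markers of progenitor and dividing cells, which mostly follows NES, did not have that order. It was 734 to 775 CPM in WT, 209.6 to 274 CPM in DLK KO, 516 to 675 CPM in LZK KO and 125 to 133 CPM in the double KO. Within that list MKI67, a marker of dividing cells, was 4.83 ± 0.740 CPM in untreated WT, 8.88 ± 0.526 CPM in DLK KO, 33.1 ± 3.00 CPM in LZK KO and 15.5 ± 1.47 CPM in the double KO. DCX, a marker of young neurons, was 1295 ± 22.3 CPM in WT and 1873 ± 25.2 CPM in the double KO. Glutamatergic neuron markers summed to 340 to 379 CPM in untreated WT and 242 to 260 CPM in DLK KO. That sum was 181 to 222 CPM in LZK KO and 175 to 202 CPM in the double KO. In experiment 2 the untreated pluripotency sum was 35.8 to 39.4 CPM with the Control gRNA. It was 55.1 to 69.8 CPM with the ATF2 gRNA and 43.2 to 47.9 CPM with the JUN gRNA, where SOX11 was lower. The glutamatergic sums there were 453 to 494, 572 to 604 and 416 to 427 CPM. The part of these markers in the SOX11 result was not tested. The related SOXC genes SOX4 and SOX12 had other values in the untreated lines. SOX4 was -0.42 in DLK KO (called), 0.11 in LZK KO and -0.02 in the double KO (not called), and SOX12 was -0.42, 0.17 and -0.17, none called. With vincristine SOX12 fell by 0.55 in WT and by 0.31 with the Control gRNA, and SOX4 by 0.24 with the Control gRNA. The genes most like SOX11 over the 14 groups were SPOCK3 (r = 0.967) and ST3GAL1 (r = 0.955), and those most like SOCS3 were MAPK11 (r = 0.948) and ANKRD6 (r = 0.945).

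GAP43 (ENSG00000172020.12, chr3:115623324-115721490, plus strand), the growth cone protein most used as a mark of axon growth, was lower in every modified line before treatment. Untreated WT held 1028, 958, 1050.3 and 994 CPM, DLK KO 729, 631, 641 and 653 CPM, LZK KO 767, 707, 749 and 885 CPM and the double KO 762, 725, 739.7 and 729 CPM. All knockout libraries lay below all WT libraries. The fold changes were -0.60 ± 0.07 (adjusted p = 9.85e-09), -0.37 ± 0.07 (adjusted p = 5.69e-05) and -0.45 ± 0.07 (adjusted p = 1.88e-06). The Control gRNA libraries held 1419, 1435, 1437, 1488 and 1458 CPM, the ATF2 gRNA ones 819, 756, 762, 736 and 771 CPM and the JUN gRNA ones 1301, 1298, 1331, 1392 and 1289.5 CPM. The ATF2 gRNA libraries lay far below the Control gRNA ones, and the JUN gRNA libraries lay just below them without overlap. The fold changes were -0.91 ± 0.03 (adjusted p = 3.51e-28) and -0.13 ± 0.03 (adjusted p = 0.00227).

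With vincristine GAP43 fell slightly in all 3 lines of experiment 2. The treated libraries held 1382, 1322, 1251, 1305 and 1291 CPM with the Control gRNA, 696, 664, 653 and 658 CPM with the ATF2 gRNA and 1149.7, 1096, 1174, 1070.3 and 1124 CPM with the JUN gRNA, each group below its untreated one. The fold changes were -0.14 ± 0.03 (adjusted p = 0.000145), -0.20 ± 0.03 (adjusted p = 2.54e-05) and -0.24 ± 0.03 (adjusted p = 6.05e-08), and the difference from the Control gRNA change was -0.06 ± 0.04 (adjusted p = 0.401) for ATF2 and -0.09 ± 0.04 (adjusted p = 0.155) for JUN. Without Control gRNA vincristine replicate 3 the JUN difference was called, at -0.14 (adjusted p = 0.0284), as it was without JUN gRNA vincristine replicate 3, at -0.14 (adjusted p = 0.0288). The summed level of the 8 neuron markers, of which TUBB3, STMN2 and DCX are also in the growth cone list, was lower after treatment in the same lines. It was 8934 to 9357 CPM untreated and 7409 to 7954 CPM treated with the Control gRNA, 6679 to 7008 and 6146 to 6382 CPM with the ATF2 gRNA and 8617 to 9187 and 7429.7 to 7717 CPM with the JUN gRNA. In untreated DLK KO it was 6515 to 7381 CPM against 8360.1 to 8866 CPM in untreated WT. The part of these markers in the GAP43, BASP1 and growth cone results was not tested. In experiment 1 no line was called lower for GAP43. WT held 997, 1158, 1028 and 1218 CPM when treated, which overlapped with the untreated libraries (0.13 ± 0.07, adjusted p = 0.181). LZK KO rose to 978, 1131, 1023 and 890.1 CPM, all above its untreated libraries (0.37 ± 0.07, adjusted p = 0.000778), and the difference of that rise from WT was 0.24 ± 0.10 (adjusted p = 0.106). That difference was called without LZK KO untreated replicate 4, at 0.31 (adjusted p = 0.0318), without LZK KO vincristine replicate 4, at 0.30 (adjusted p = 0.041), and without WT vincristine replicate 4, at 0.30 (adjusted p = 0.0222). DLK KO was 0.17 ± 0.07 (adjusted p = 0.134) and the double KO 0.16 ± 0.07 (adjusted p = 0.802), and in the double KO the treated libraries lay above the untreated ones. The genes most like GAP43 over the 14 groups were NDRG4 (r = 0.969) and AP2B1 (r = 0.967). Among the members KLF6 was the nearest to GAP43 (r = 0.810).

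BASP1 (ENSG00000176788.8, chr5:17065598-17276843, plus strand), which resembles GAP43 in its membrane attachment, had a different pattern. Untreated DLK KO held 324, 316, 371 and 392 CPM against 889, 897, 894 and 882 CPM in WT, far apart, with a fold change of -1.34 ± 0.12 (adjusted p = 1.2e-10). Untreated LZK KO (922, 698, 978 and 975 CPM) overlapped with WT, and the double KO (835, 839, 814 and 848 CPM) lay just below it without a call. In the 5 Mb on each side of BASP1, 13 of 22 other tested genes were called lower in untreated DLK KO and none higher, with a median of -0.85, against -0.08 in LZK KO and 0.06 in the double KO. Around the other 8 members the neighbours' median in untreated DLK KO lay between -0.02 and 0.18, for example 0.04 around SOX11 and 0.06 around GAP43. Whether BASP1 in DLK KO differs from its neighbours was not tested. The genes most like BASP1 over the 14 groups were TMEM169 (r = 0.984) and PDE6D (r = 0.979), both on chromosome 2, and among the members KLF7 was nearest to BASP1 (r = 0.843), also on chromosome 2. BASP1-AS1 shares 3.38% of BASP1's exonic bases and had 59 to 201 counts in experiment 1 and 96 to 432 in experiment 2.

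With vincristine BASP1 fell with the Control gRNA, from 656, 685, 666, 661 and 627 CPM to 538, 509, 493, 537 and 507 CPM, without overlap (-0.35 ± 0.03, adjusted p = 3.51e-12). ATF2 gRNA neurons went from 549.9, 567, 509, 547 and 550.0 CPM to 495, 494, 483 and 521 CPM, which overlap, and the fall of 0.13 on the log2 scale (adjusted p = 0.018) did not hold under every alternative. The call for ATF2 gRNA did not survive leaving out, in turn, ATF2 gRNA untreated replicate 2, 4 and 5, ATF2 gRNA vincristine replicate 2, 3 and 4, at log2 values of -0.12 to -0.11 (adjusted p up to 0.125), and was also lost with RLE factors (-0.11, adjusted p = 0.0505), limma voom (-0.10, adjusted p = 0.141) and the compared groups alone (-0.11, adjusted p = 0.1). The JUN gRNA change was -0.08 ± 0.03 (adjusted p = 0.0918), and without JUN gRNA vincristine replicate 3 it was -0.12 (adjusted p = 0.0128). Against the Control gRNA both changes were less negative, by 0.22 ± 0.05 (adjusted p = 0.00049) and 0.27 ± 0.05 (adjusted p = 2.6e-05). In WT the treated libraries held 895, 925, 739 and 507 CPM, of which replicate 4 was lowest, and the change was -0.22 ± 0.11 (adjusted p = 0.164). Without WT vincristine replicate 2 it was -0.32 (adjusted p = 0.0371) and without replicate 4 -0.07 (adjusted p = 0.565). The difference of DLK KO from WT (0.49 ± 0.16, adjusted p = 0.0342) did not hold under every alternative. The call for DLK KO against WT did not survive leaving out, in turn, DLK KO untreated replicate 1 and 2, DLK KO vincristine replicate 1 and 2, WT untreated replicate 2 and 3, WT vincristine replicate 3, at log2 values of 0.44 to 0.49 (adjusted p up to 0.0758), and was also lost with no filter (0.49, adjusted p = 0.101) and the compared groups alone (0.48, adjusted p = 0.0906). Untreated ATF2 gRNA libraries lay below all Control gRNA libraries (-0.28 ± 0.03, adjusted p = 1.88e-09).

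Of 18 other growth cone and growth-associated genes, all tested, 2 were higher and 3 lower with vincristine in WT, and 3 higher and 12 lower with the Control gRNA, with medians of -0.12 and -0.31, against 0.00 and 0.03 for all genes. The share of all genes called in either direction was 30.2% and 35.3%. STMN4, a tubulin-binding protein of the stathmin family, rose by 1.19 ± 0.06 (adjusted p = 1.15e-17) in WT and 1.22 ± 0.07 (adjusted p = 1.51e-13) with the Control gRNA. TUBB3, the neuronal beta-tubulin, fell by 0.90 and 0.66 there and fell in all 7 lines, by 1.10 in the double KO. Its mean was 27.7 CPM over the libraries of experiment 1 and 13.3 CPM over those of experiment 2. Whether TUBB3 shares exonic bases with other genes, which could lower its counts, was not examined. Among ATF2 gRNA neurons 15 of the 18 were lower before treatment and 2 higher, as GAP43 and BASP1 were lower there, and in untreated DLK KO 12 were lower and 1 higher, beside 39.9% and 34.5% of all genes called in either direction. In untreated LZK KO 9 were higher and 3 lower and in the double KO 8 higher and 6 lower, beside 33.9% and 45.7% of all genes. GAP43 was lower in both. With the JUN gRNA 2 were higher and 8 lower, beside 11.2%. Of 21 other genes linked to regeneration, 8 of 15 tested were higher with vincristine in WT and 2 lower, and 10 of 17 higher and 2 lower with the Control gRNA, where 30.2% and 35.3% of all genes were called. TNFRSF12A, the receptor of the cytokine TWEAK, rose by 4.53 ± 0.26 (adjusted p = 2.03e-16) and 4.09 ± 0.12 (adjusted p = 8.58e-29), and ATF3, a stress-induced factor of injured neurons, by 3.98 ± 0.11 (adjusted p = 4e-25) and 3.48 ± 0.07 (adjusted p = 6.61e-33). In the knockout lines ATF3 rose by 2.15 in DLK KO and 2.41 in LZK KO, and was 0.37 and not called in the double KO. It was called higher with vincristine in both the ATF2 gRNA and the JUN gRNA neurons. Among the members, SMAD1 was the one whose rise was called in both control lines and whose change was called smaller in each modified line.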

How the data were processed

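Gene counts were deposited as 1 table per experiment, with 1 column per library and the exonic length of each gene in bases. The authors' values are raw whole-number counts per gene, per the file headers. The submitters' processing notes name cutadapt 3.4, STAR, featureCounts and Subread 2.0.1, and the build GRCh38. The deposited column names mention marked duplicates. Whether these were counted, the STAR version, the annotation release and the strand setting are not given in the sources used here, so reads of overlapping antisense genes may be shared. Per the labels' protocols, the paired reads came from poly(A) RNA and a kit that keeps strand. The design text gives day 14 for treatment.

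From the counts, each experiment was fitted separately with edgeR 4.0.16 in R 4.3.3 (filterByExpr by group, TMM factors, 1 mean per group, robust quasi-likelihood test, Benjamini-Hochberg adjustment over all genes tested, threshold 0.05). All groups of an experiment entered 1 fit. SE were derived as the absolute log2 fold change over the root of F, and intervals are at 95%. CPM use TMM-scaled library sizes and RPKM divide them by exonic length. The tables were normalized separately, so levels are compared only within an experiment. There were 19 comparisons. Alternatives were DESeq2 1.42.0, limma 3.58.1 with voom and quality weights, RLE factors, other filters, a replicate block, fits of the compared groups alone and fits without each library. The edgeR step was tested on simulated data. Replicate numbers did not pair the libraries, and no library was a copy of another of its group. Besides the members, the text names the 2 genes with the largest called change of each list in WT and with the Control gRNA (mean log2 CPM of at least 1), the 2 genes most like each member, the targeted genes and cell markers. A gene that this rule names is not reported here. The members and lists were chosen with earlier results of these data known.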

Additional observations from a re-analysis of the deposited data

Results flagged for a closer look

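In 8 of 136 groups of libraries checked, the highest or lowest library was far from the rest by Dixon's 95% criterion, which chance meets in about 1 of 20 groups. SOX11 in the double KO untreated replicate 2 lay at 1258 CPM, against 1219.8 to 1222 CPM in the others of its group. KLF4 in DLK KO vincristine replicate 3 lay at 0.437 CPM, against 0 CPM in the others of its group. KLF6 in WT vincristine replicate 4 lay at 46.5 CPM, against 48.6 to 48.9 CPM in the others of its group. SOCS3 in WT vincristine replicate 4 lay at 0.323 CPM, against 1.44 to 1.62 CPM in the others of its group. SOCS3 in the double KO vincristine replicate 3 lay at 3.12 CPM, against 4.69 to 4.75 CPM in the others of its group. KLF4 in JUN gRNA vincristine replicate 3 lay at 0.0867 CPM, against 0 to 0.0200 CPM in the others of its group. KLF9 in Control gRNA untreated replicate 2 lay at 0.952 CPM, against 0.0906 to 0.238 CPM in the others of its group. SMAD1 in Control gRNA vincristine replicate 5 lay at 110.3 CPM, against 129 to 135 CPM in the others of its group.

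A called difference between lines in the vincristine change was found for 5 members by edgeR's quasi-likelihood test, 26 differences in all (the test of each is in the report). For SMAD1 it was -1.40 for DLK KO, -1.47 for LZK KO and -1.84 for the double KO against WT, -0.44 for the double KO against DLK KO, and -1.47 and -1.37 for the ATF2 and JUN gRNAs against the Control gRNA. For STAT3 the same comparisons with WT gave 0.45, 0.50 and 0.44, those with the Control gRNA 0.52 and 0.23, and the ATF2 against the JUN gRNA 0.28. For KLF7 they were -0.25 (LZK KO) and -0.41 (double KO) against WT, -0.33 for the double KO against DLK KO, -0.45 and -0.25 for the gRNAs against the Control gRNA, and -0.20 between the gRNAs. For KLF6 they were 0.33 (DLK KO) and 0.33 (LZK KO) against WT, -0.41 for the double KO against DLK KO, and -0.44 and -0.51 for the gRNAs. For BASP1 they were 0.49 for DLK KO against WT, and 0.22 and 0.27 for the gRNAs.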

How the results depend on the processing

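Of 2567 values of 139 member results under the alternatives, 2367 kept their direction and side of the threshold, 133 lost the call, 46 gained one and 21 changed sign, all 21 among vincristine changes that were not called. SOX11 in WT was 0.10 with voom. KLF7 with the ATF2 gRNA was 0.012 with RLE factors and with DESeq2, 0.013 with the filter at a mean of 1 CPM and 0.0091 with the compared groups alone. When single libraries were left out, values ran from -0.10 to 0.12 for SOX11 and -0.011 to 0.053 for KLF6 in WT, -0.012 to 0.14 for BASP1 and -0.13 to 0.055 for STAT3 in LZK KO, -0.0058 to 0.048 for BASP1 and -0.13 to 0.058 for SOCS3 in the double KO, and -0.037 to 0.045 for KLF7 and -0.062 to 0.023 for KLF6 with the ATF2 gRNA. The cause was not tested.

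Counts of members called also moved. In DLK KO 4 became 7 with voom and 2 to 4 without single libraries (2 without DLK KO vincristine replicate 2). In the double KO 0 became 1 with the compared groups alone. With the ATF2 gRNA 2 became 1 with RLE factors, voom and the compared groups alone, and 1 to 2 without single libraries. For LZK KO against WT 4 became 2 with no filter and 1 with the compared groups alone. For the double KO against DLK KO 3 became 5 with voom, 1 with no filter, 5 with the compared groups alone and 0 to 3 without single libraries (0 without double KO vincristine replicate 3). For the ATF2 against the JUN gRNA 2 became 1 with RLE factors, no filter and the compared groups alone, and 1 to 2 without single libraries. For untreated JUN gRNA neurons 2 became 4 with voom and the compared groups alone, and 2 to 4 without single libraries (4 without Control gRNA untreated replicate 2).

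The replicate numbers did not pair the libraries, and with the replicate block the count of members called went from 5 to 4 with the JUN gRNA, from 3 to 2 for the double KO against DLK KO and from 6 to 5 in the untreated double KO. The KLF9 change with the Control gRNA was 2.69 with voom, against 1.77. Low counts limit KLF4, KLF9 and SOCS3.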
